A study of Mus musculus with 12 samples.

Results

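The Hox cluster genes were the 39 genes, of 34836 gene names on the array, whose name in the array annotation joined Hox, a cluster letter from a to d and a number. They were read by 45 of 55681 probes. The 39 were made up of 11 *Hoxa*, 10 *Hoxb*, 9 *Hoxc* and 9 *Hoxd* genes. The RNA of 4 groups derived from mouse embryonic stem (ES) cells, with 3 samples in each, was read on 12 Agilent arrays with 1 colour. Every group carried Gata6GR, the endoderm transcription factor Gata6 fused with the ligand-binding domain of the glucocorticoid receptor, which acts when dexamethasone (Dex) is given. The groups were *Sox7* (+/−) ES cells without Dex, *Sox7* (+/−) cells treated with Dex and collected on day 4 (XEN-like cells), *Sox7* (−/−) ES cells without Dex and *Sox7* (−/−) XEN-like cells on day 4. *Sox7* (+/−) cells were 1 targeted clone, and the *Sox7* (−/−) cells came from it by selection in a high dose of puromycin, so the genotypes were compared in cells of single lines. XEN-like cells are cultured cells that resemble the extraembryonic endoderm.

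Hox genes encode homeodomain transcription factors that give cells their position along the head to tail axis. They lie in 4 clusters, and within a cluster the order of the genes follows the order in which they are used: low-numbered (anterior) genes are active earlier and nearer the head, and high-numbered (posterior) genes later and nearer the tail. Genes of the same number in different clusters are paralogues. In ES cells the clusters are largely held silent by Polycomb proteins, retinoic acid and Cdx factors switch them on, and the proteins bind DNA together with TALE cofactors of the Pbx and Meis families.

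Signal is given below as a percentage of the 75th percentile of the array, and differences as log2 differences from limma with their standard error (SE). A call needed both a change of more than 2-fold and an adjusted p (Benjamini-Hochberg, over all 25938 probes tested) under 0.05. A probe entered the test if some group had all 3 of its arrays well above background by the flag of the scanner software. In bulk RNA, fewer cells that express a gene and less of its RNA per cell cannot be told apart. The 75th percentile lay between 252.3 and 415.9 intensity units, and the share of spots well above background lay between 41.7% and 52.3%. *Sox7*, read by a probe on chromosome 14, was in *Sox7* (+/−) cells at 224 ± 5.42% (SD, n = 3) without Dex and at 558 ± 113% (SD, n = 3) with it, and was not well above background on any *Sox7* (−/−) array. *Sox7* (+/−) XEN-like replicate 3 stood apart, with correlations of 0.9827 and 0.9823 (Pearson's r across probes) with its replicates, where other pairs within a group reached 0.993 or more. Without it the same Hox genes were called in every comparison, with *Hoxc6* added between the ES groups. *Nanog* and *Sox2*, which mark pluripotent cells, were well above background on all 6 ES arrays and on no XEN-like array. They are 2 of 8 pluripotency markers, and in each XEN-like group 6 of the 8 were well above background on all 3 arrays. With Dex 5 of the 8 were called lower and 1 higher in *Sox7* (+/−) cells, and 6 lower and 0 higher in *Sox7* (−/−) cells. Of all genes tested, 14.0% and 14.1% were called lower. Of 10 extraembryonic endoderm markers, 8 were called higher with Dex in *Sox7* (+/−) cells and 9 in *Sox7* (−/−) cells. Over all genes tested, 11.0% and 14.5% were called higher. All 10 endoderm markers were also well above background on every ES array.

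Of the 39 Hox genes, 15 were measured, that is, some group had them well above background on all 3 of its arrays, and 24 were silent by this rule. In the *Hoxa* cluster on chromosome 6, those measured included *Hoxa7*, *Hoxa10* and *Hoxa11*. In the *Hoxb* cluster on chromosome 11, 4 of 10 were measured (*Hoxb4*, *Hoxb7*, *Hoxb9* and *Hoxb13*). The *Hoxc* cluster on chromosome 15 had 4 of 9 (*Hoxc4*, *Hoxc6*, *Hoxc9* and *Hoxc13*), and the *Hoxd* cluster on chromosome 2 had 3 of 9 (*Hoxd8*, *Hoxd9* and *Hoxd13*). By position, 6 of 15 genes of paralogue groups 4 to 8 were measured, and 8 of 16 of groups 9 to 13.

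**Figure D1:**
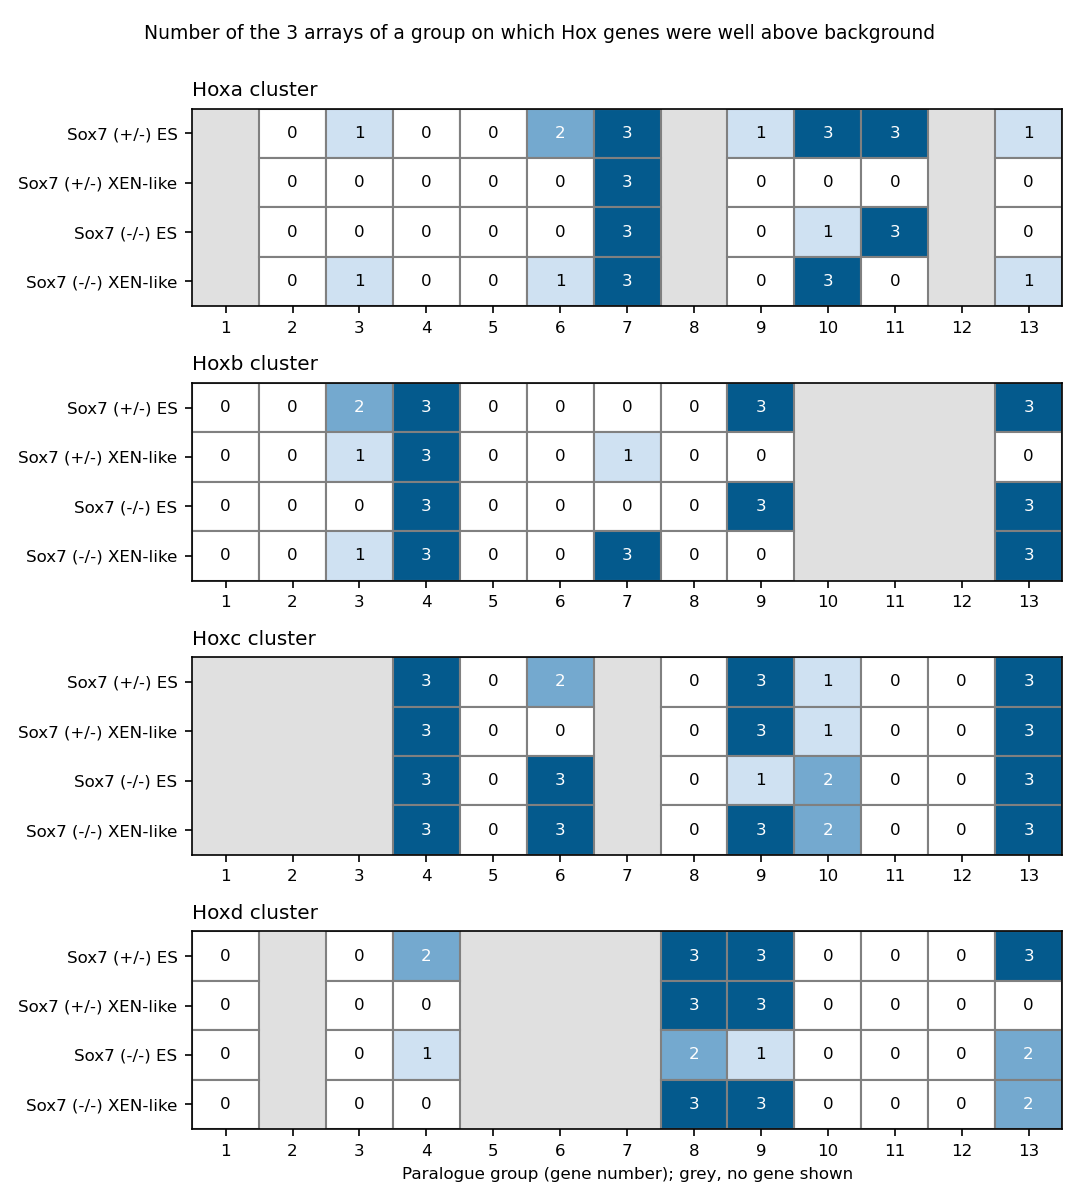
Each square gives, for 1 of 38 Hox genes (column, by its number) and 1 group (row), the number of the 3 arrays on which any probe of the gene was well above background. Dark squares (3 of 3) lay in all 4 clusters, and 12, 7, 8 and 11 genes were dark in the rows from top to bottom over the 4 clusters.

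*Sox7* (+/−) ES cells had 13 Hox genes well above background on all 3 arrays, their XEN-like counterparts 8, ES cells without *Sox7* 9 and their XEN-like counterparts 12. On at least 1 of 3 arrays the ES groups had 21 and 16. *Hoxa7*, *Hoxb4*, *Hoxc4* and *Hoxc13* were well above background on all 12 arrays.

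Among the 24 silent genes, 17 were not well above background on any array. These were *Hoxa2*, *Hoxa4*, *Hoxa5*, *Hoxb1*, *Hoxb2*, *Hoxb5*, *Hoxb6*, *Hoxb8*, *Hoxc5*, *Hoxc8*, *Hoxc11*, *Hoxc12*, *Hoxd1*, *Hoxd3*, *Hoxd10*, *Hoxd11* and *Hoxd12*. *Hoxb1* and *Hoxa2*, which pattern the hindbrain, are among them. The other silent genes reached that level on some arrays: *Hoxa9* on 1, *Hoxa3* and *Hoxa13* on 2, *Hoxa6* and *Hoxd4* on 3, *Hoxb3* on 4 and *Hoxc10* on 6 of 12. No difference is given for a silent gene, and a level not well above background does not show that the gene was off.

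For 6 genes the array had more than 1 probe, and no gene had more than 1 probe in the test.

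The stretches before the starts of 4 genes that moved are shown because 2 of them lie before genes that rose with Dex in both genotypes (*Hoxa7* and *Hoxd8*) and 2 before genes that fell (*Hoxa11* in both genotypes and *Hoxd13* in *Sox7* (+/−) cells). They are the 250 bases before the RefSeq start of each gene (GRCm38.p6, a different build from that of the probe positions), written 5′ to 3′ on the strand of the gene. Capitals mark CG pairs, the sites of DNA methylation and of the CpG islands to which Polycomb proteins bind.
Hoxa7, chr6:52218574-52218823, minus strand: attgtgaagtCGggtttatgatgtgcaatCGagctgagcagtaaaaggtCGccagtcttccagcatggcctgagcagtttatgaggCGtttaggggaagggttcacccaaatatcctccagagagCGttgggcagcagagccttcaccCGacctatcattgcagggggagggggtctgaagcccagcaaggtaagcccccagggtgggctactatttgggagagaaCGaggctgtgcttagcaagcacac
Hoxd8, chr2:74704365-74704614, plus strand: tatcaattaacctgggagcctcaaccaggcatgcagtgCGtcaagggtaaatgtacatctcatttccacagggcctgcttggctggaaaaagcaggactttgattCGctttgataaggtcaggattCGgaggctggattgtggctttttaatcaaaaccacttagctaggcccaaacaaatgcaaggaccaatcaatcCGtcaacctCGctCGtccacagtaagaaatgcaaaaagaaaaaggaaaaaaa
Hoxa11, chr6:52245811-52246060, minus strand: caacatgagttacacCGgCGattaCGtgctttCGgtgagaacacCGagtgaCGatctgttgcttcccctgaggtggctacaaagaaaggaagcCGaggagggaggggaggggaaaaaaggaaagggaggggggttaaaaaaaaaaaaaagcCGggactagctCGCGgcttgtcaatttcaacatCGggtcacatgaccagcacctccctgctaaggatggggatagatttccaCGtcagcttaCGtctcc
Hoxd13, chr2:74667975-74668224, plus strand: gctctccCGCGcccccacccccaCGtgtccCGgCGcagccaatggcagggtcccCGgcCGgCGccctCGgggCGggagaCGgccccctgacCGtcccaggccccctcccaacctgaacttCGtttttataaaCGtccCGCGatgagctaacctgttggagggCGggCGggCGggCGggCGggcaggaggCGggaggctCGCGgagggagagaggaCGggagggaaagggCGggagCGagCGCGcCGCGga

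The stretch before *Hoxa7* held 7 CG pairs, that before *Hoxd8* 6, that before *Hoxa11* 13 and that before *Hoxd13* 31. *Hoxb4*, which also rose with Dex in both genotypes and whose promoter is not printed, had 14. The median over all 32851 promoters of the table was 6, and over the 24 promoters of the 22 Hox genes that matched it was 12.5, with a range from 2 to 35. Of the 15 measured genes, 8 had a promoter in the table. The words AGATAA and TGATAA, bound by Gata factors, were searched on both strands and were found in 16.6% of all promoters and in 3 of the 24 Hox promoters, those of *Hoxb8*, *Hoxd8* and *Hoxd12*. In *Hoxd8* the match was TGATAA, starting 140 bases before the start. AACAAT, a Sox motif, was found in 9.42% of all promoters and in none of the 24. TTTATNG, a Cdx motif, was found in 9.81% of all promoters and in those of *Hoxb8* and *Hoxd4*, and TGATTNAT, a motif of Hox with Pbx, in 2.82% and in those of *Hoxa2* and *Hoxd11*. In *Hoxb8* no match of the Gata words overlapped the Cdx matches.

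The first question was how the Hox genes answered Dex in *Sox7* (+/−) cells. All groups carried Gata6GR, so effects of Gata6GR and of Dex itself cannot be told apart. *Hoxa7*, *Hoxb4*, *Hoxb7*, *Hoxc9* and *Hoxd8* were called higher in XEN-like than in ES cells, and *Hoxa11*, *Hoxb9*, *Hoxb13* and *Hoxd13* lower. The other 6 measured genes were not called. In the background of all 18945 genes tested, 11.0% were called higher and 14.0% lower. The 15 genes are only those that passed the filter on dim probes, which a gene can pass through the group where it is high, so this count was not set against the background as a result about Hox genes. The median log2 difference was 0.01 over the 15 and 0.16 over all genes tested.

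In *Sox7* (−/−) cells the same 5 genes were called higher, and *Hoxa11*, *Hoxb9* and *Hoxb13* lower, with *Hoxd13* not called. Of all genes, 14.5% were called higher and 14.1% lower in this comparison. The median was 0.24 over the 15 Hox genes and 0.07 over all genes. By position, in each genotype, of the 6 measured genes of groups 4 to 8, 4 were called higher and none lower. Of the 8 measured genes of groups 9 to 13, *Hoxc9* was the only one called higher in either genotype, and 4 were called lower in *Sox7* (+/−) and 3 in *Sox7* (−/−) cells. *Hoxa11* and *Hoxb9* passed the filter only through ES groups, *Hoxd13* only through *Sox7* (+/−) ES cells and *Hoxb7* only through *Sox7* (−/−) XEN-like cells. The filter thus favoured their direction, and these counts are not a result about position. In *Sox7* (+/−) cells the call of *Hoxb7* was lost in 20 of 24 alternatives.

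**Figure D2:**
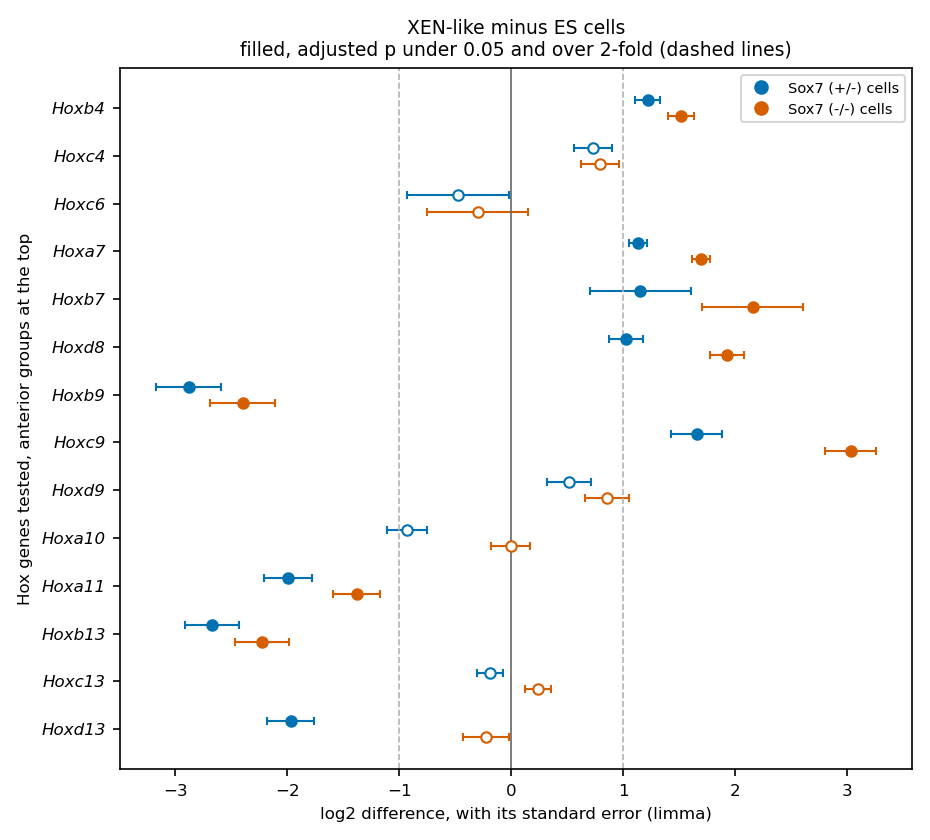
Points give the log2 difference between XEN-like and ES cells for 14 of the Hox genes tested, with bars of 1 standard error, in *Sox7* (+/−) (blue) and *Sox7* (−/−) cells (orange). Filled points were called. The filled points right of 0 are *Hoxb4*, *Hoxa7*, *Hoxb7*, *Hoxd8* and *Hoxc9*, and those left of 0 are *Hoxb9*, *Hoxa11*, *Hoxb13* and, in *Sox7* (+/−) cells, *Hoxd13*.

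*Hoxa7*, a gene of the trunk region, was at 63.1%, 65.6% and 63.4% on the *Sox7* (+/−) ES arrays and at 145.6%, 144.7% and 131.3% on the *Sox7* (+/−) XEN-like arrays. In *Sox7* (−/−) cells it was at 73.1%, 86.4% and 71.7% in ES and 246.2%, 253.1% and 246.9% in XEN-like cells. No array of an ES group reached any array of an XEN-like group. The log2 difference was 1.13 (SE 0.08, adjusted p = 8.4e-07 from limma) in *Sox7* (+/−) cells and 1.70 (SE 0.08, adjusted p = 3.2e-08) in *Sox7* (−/−) cells.

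*Hoxb4*, known from blood stem cells, was at 81.8%, 81.1% and 72.4% in *Sox7* (+/−) ES cells and at 172.3%, 167.0% and 209.6% in the XEN-like cells. In *Sox7* (−/−) cells the values were 66.5%, 83.7% and 66.5% in ES and 204.6%, 209.5% and 202.6% in XEN-like cells. The ES and XEN-like arrays did not overlap in either genotype, and the genotypes overlapped in both states. The log2 difference was 1.22 (SE 0.11, adjusted p = 6.6e-06 from limma) and 1.52 (SE 0.11, adjusted p = 9.6e-07).

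*Hoxd8*, at the middle of the *Hoxd* cluster, was at 17.3%, 14.2% and 15.4% in *Sox7* (+/−) ES cells and at 33.8%, 31.9% and 29.6% in the XEN-like cells. In *Sox7* (−/−) ES cells it was at 12%, 14.8% and 9.16%, the last of these not well above background, and in the XEN-like cells at 43.4%, 43.3% and 47.2%. Again no ES array reached an XEN-like array. The log2 difference was 1.02 (SE 0.15, adjusted p = 1.9e-04 from limma) in *Sox7* (+/−) cells, close to the 2-fold limit, and 1.92 (SE 0.15, adjusted p = 1.4e-06) in *Sox7* (−/−) cells. Without *Sox7* (+/−) ES replicate 2 or without *Sox7* (+/−) XEN-like replicate 1 the first difference was 0.96 or 0.98 and was not called.

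*Hoxc9*, a gene of the thoracic region, was at 34.2%, 31.9% and 30.1% in *Sox7* (+/−) ES cells and at 96.8%, 94.6% and 111.8% in the XEN-like cells. In *Sox7* (−/−) ES cells it was at 9.23%, 17.2% and 8.26%, and only the second value was well above background. The *Sox7* (−/−) XEN-like arrays had 96.6%, 91.1% and 80.8%. Both ES groups lay below both XEN-like groups. The log2 difference was 1.65 (SE 0.23, adjusted p = 1.1e-04 from limma) in *Sox7* (+/−) and 3.03 (SE 0.23, adjusted p = 9.2e-07) in *Sox7* (−/−) cells.

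*Hoxb7* rested on fewer arrays. It was at 6.25%, 3.72% and 5.43% in *Sox7* (+/−) ES cells and at 9.60%, 9.39% and 9.60% in *Sox7* (−/−) ES cells, none of them well above background. Its *Sox7* (+/−) XEN-like arrays were at 8.996%, 27.0% and 5.71%, and only replicate 2 was well above background. The *Sox7* (−/−) XEN-like arrays had 40.6%, 47.7% and 39.5%. The *Sox7* (+/−) groups overlapped and the *Sox7* (−/−) groups did not. In *Sox7* (−/−) cells Dex raised the signal by at least 4.46-fold (adjusted p = 0.0017 from limma). In *Sox7* (+/−) cells the log2 difference was 1.15 (SE 0.45, adjusted p = 0.046), with 1 of 3 XEN-like arrays well above background, and 0.51 (adjusted p = 0.086) without XEN-like replicate 2. That call was lost in 20 of 24 alternatives.

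**Figure D3:**
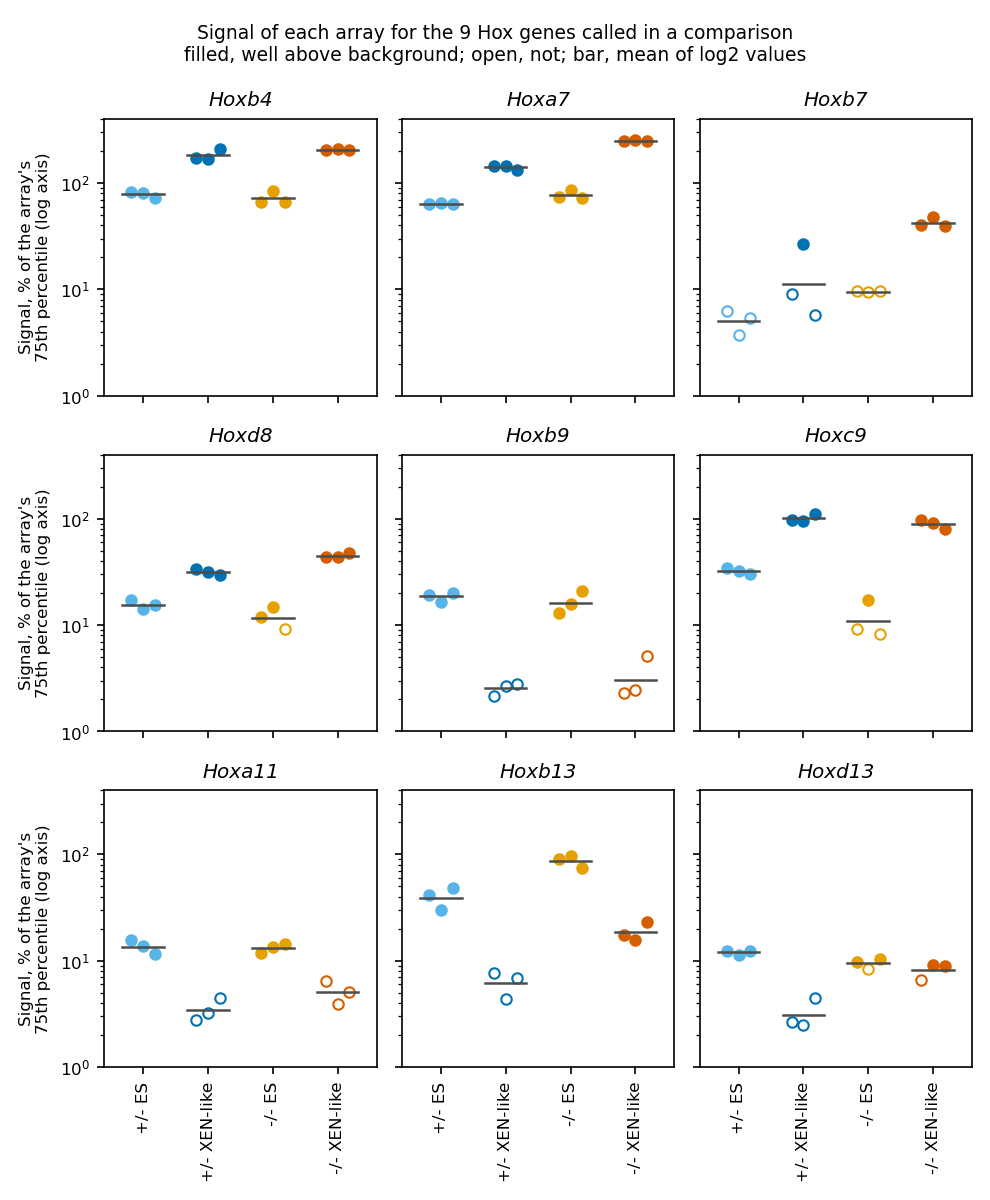
Each point is the signal of 1 array, as a percentage of the array's 75th percentile on a log axis, for the 9 Hox genes called in a comparison. Filled points were well above background, open points were not, and bars are means of the log2 values. *Hoxb4*, *Hoxa7*, *Hoxd8* and *Hoxc9* stood higher in XEN-like than in ES cells in both genotypes, *Hoxb9* and *Hoxa11* were open on all XEN-like arrays, and *Hoxb13* and *Hoxd13* were open on all 3 *Sox7* (+/−) XEN-like arrays.

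Among the genes called lower, *Hoxb13*, a gene of the tail end of the axis, was at 41.2%, 30.1% and 47.9% in *Sox7* (+/−) ES cells, and at 7.65%, 4.34% and 6.88% in the XEN-like cells, none of the latter well above background. In *Sox7* (−/−) ES cells it was at 89.6%, 95.8% and 75.2%, and in the XEN-like cells at 17.4%, 15.7% and 23.1%, all well above background. The 4 groups did not overlap, with *Sox7* (−/−) ES cells at the top and *Sox7* (+/−) XEN-like cells at the bottom. The signal was at least 3.57-fold lower with Dex in *Sox7* (+/−) cells (adjusted p = 5.1e-06 from limma), and the log2 difference in *Sox7* (−/−) cells was −2.23 (SE 0.24, adjusted p = 1.7e-05).

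*Hoxb9* was at 19.4%, 16.6% and 20.2% in *Sox7* (+/−) ES cells and at 12.9%, 15.9% and 20.7% in *Sox7* (−/−) ES cells. Its 6 XEN-like values lay between 2.16% and 5.16%, and none was well above background. It was at least 1.71-fold lower with Dex in *Sox7* (+/−) cells and at least 2.13-fold lower in *Sox7* (−/−) cells. The fitted log2 differences, on XEN-like values below background, were −2.88 (adjusted p = 1.1e-05 from limma) and −2.40 (adjusted p = 3.5e-05). The ES and XEN-like arrays did not overlap in either genotype.

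*Hoxa11*, which patterns limb and uterus, was at 15.5%, 13.8% and 11.7% in *Sox7* (+/−) ES cells and at 11.7%, 13.47% and 14.5% in *Sox7* (−/−) ES cells. With Dex it was at 2.77%, 3.21% and 4.48%, and at 6.46%, 3.96% and 5.09%, none well above background. All 6 ES values lay above all 6 XEN-like values. The signal was at least 1.24-fold lower with Dex in *Sox7* (+/−) cells and at least 1.74-fold lower in *Sox7* (−/−) cells. The fitted log2 differences, on XEN-like values below background, were −1.99 (adjusted p = 1.7e-05 from limma) and −1.38 (adjusted p = 2.1e-04).

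*Hoxd13*, a gene of digits and hindgut, was at 12.5%, 11.3% and 12.4% in *Sox7* (+/−) ES cells and at 2.63%, 2.51% and 4.42% in the XEN-like cells, none of the latter well above background. It was at least 1.10-fold lower with Dex in these cells. The fitted log2 difference, on XEN-like values below background, was −1.97 (SE 0.21, adjusted p = 1.5e-05 from limma). In *Sox7* (−/−) cells it was at 9.75%, 8.42% and 10.4% in ES and at 6.65%, 9.04% and 8.88% in XEN-like cells, and in each of these groups 2 of 3 arrays were well above background. These groups overlapped, and the log2 difference was −0.23 (SE 0.21, adjusted p = 0.35).

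The measured genes not called in either genotype changed less. *Hoxc4* had log2 differences of 0.73 and 0.79 and *Hoxd9* of 0.51 and 0.86, all with an adjusted p under 0.05 but under 2-fold. *Hoxa10* was at least 1.24-fold lower with Dex in *Sox7* (+/−) cells (adjusted p = 0.0010 from limma), with a fitted log2 difference of −0.93, and at −0.01 in *Sox7* (−/−) cells. *Hoxc6* (−0.48 and −0.30) and *Hoxc13* (−0.19 and 0.24) did not pass the threshold on p in either genotype.

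The *Sox7* (+/−) arrays lay on 1 slide. Of the *Sox7* (−/−) cells, the ES arrays and 1 XEN-like array shared the other slide. Within that slide the differences of the 5 genes called higher were 1.68 for *Hoxa7*, 1.51 for *Hoxb4*, 2.09 for *Hoxb7*, 1.88 for *Hoxd8* and 3.14 for *Hoxc9*, and those of the 3 called lower were −1.03 for *Hoxa11*, −2.82 for *Hoxb9* and −2.31 for *Hoxb13*. The scaling of the arrays weighed on the *Sox7* (+/−) response: with spike-in controls the median of all genes moved from 0.16 to −0.33, 18.9% of called genes were higher in place of 43.8% (19.6% in the deposited table without scaling), and 1 Hox gene, *Hoxc9*, stayed called higher. No gene called here changed direction under any scaling.

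The second question was whether XEN-like cells without *Sox7* differed from those with 1 copy. *Hoxb7*, *Hoxb13* and *Hoxd13* were called higher in *Sox7* (−/−) XEN-like cells and no Hox gene was called lower. Of all genes tested, 4.13% were called higher and 3.39% lower. At an unadjusted p under 0.05 in limma, without a minimum fold, 1 of the 15 Hox genes was lower, and 20.5% of all genes were. At an adjusted p under 0.05 without a minimum fold, 7 of the 15 were higher and 1 lower. Of all 18945 genes, 3831 were higher and 2858 lower by that rule. The median was 0.56 over the 15 Hox genes and 0.01 over all genes tested. *Hoxb7* passed the filter on dim probes only through *Sox7* (−/−) XEN-like cells, the group in which it was called higher. The 15 are the genes left by that filter, so these counts and the median are not a result about Hox genes.

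For *Hoxb7* the log2 difference was 1.93 (SE 0.45, adjusted p = 0.0091 from limma), with all 3 *Sox7* (−/−) arrays above all 3 *Sox7* (+/−) arrays, of which 1 was well above background. Fitted on the compared arrays alone, it was not called (adjusted p = 0.062). *Hoxb13* was at least 1.69-fold higher (adjusted p = 9.1e-04), with a fitted difference of 1.60 (SE 0.24). *Hoxd13* had a fitted difference of 1.40 (SE 0.21, adjusted p = 7.5e-04). For *Hoxd13* no fold can be given, since its *Sox7* (−/−) mean (log2 −3.62) lay under the background limit of the *Sox7* (+/−) arrays (−3.19). It was well above background on no *Sox7* (+/−) array and on 2 of 3 *Sox7* (−/−) arrays. Within the slide that held arrays of both groups, the differences were 1.96 for *Hoxb7*, 1.64 for *Hoxb13* and 1.54 for *Hoxd13*.

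*Hoxa7* (0.82), *Hoxc4* (0.56) and *Hoxd8* (0.49) were higher at an adjusted p under 0.05 but by less than 2-fold. *Hoxa10*, not well above background on any *Sox7* (+/−) XEN-like array, was at least 1.07-fold higher (adjusted p = 0.011 from limma). *Hoxc6* was at 7.21%, 6.81% and 2.51% against 13.02%, 10.8% and 11.1%, a difference of 1.22 (SE 0.45, adjusted p = 0.060) that was not called and whose first 3 values were not well above background. *Hoxa11*, *Hoxb4*, *Hoxb9*, *Hoxc9*, *Hoxc13* and *Hoxd9* did not pass the threshold on p. With spike-in controls the share of higher genes among all called was 78.7% in place of 54.9% (90.7% in the unscaled table), the median moved from 0.01 to 0.26, and 5 Hox genes were called higher, with *Hoxa7* and *Hoxc6* added.

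**Figure D4:**
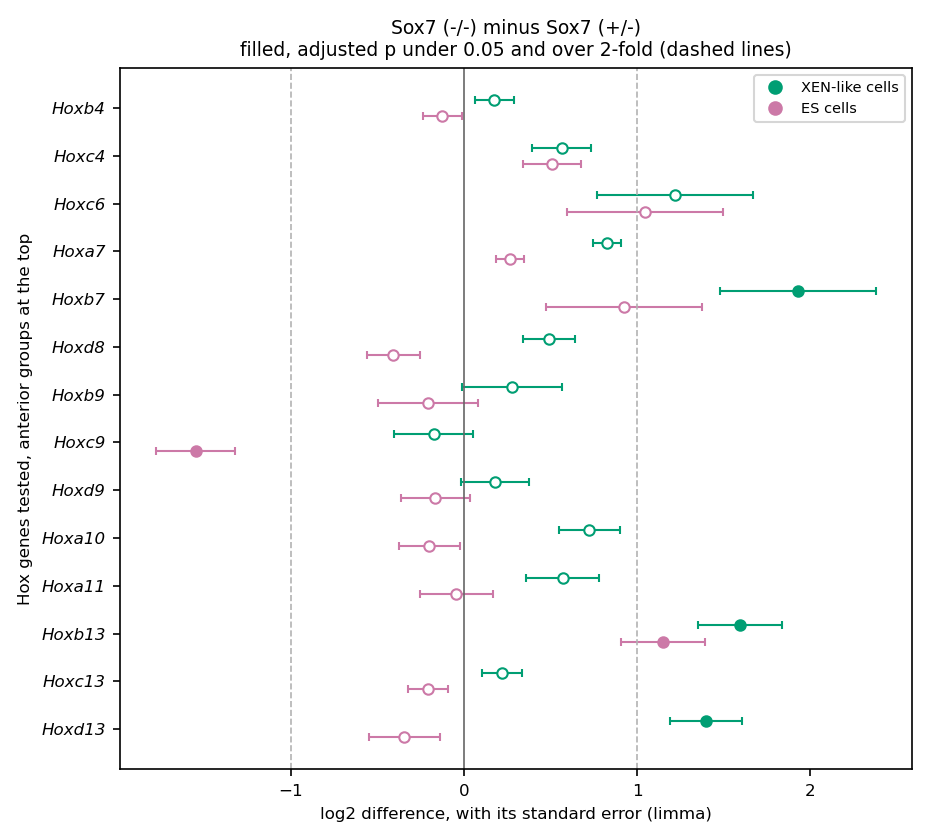
Points give the log2 difference *Sox7* (−/−) minus *Sox7* (+/−) for 14 of the Hox genes tested, with bars of 1 standard error, in XEN-like cells (green) and ES cells (pink). Filled points were called: *Hoxb7*, *Hoxb13* and *Hoxd13* in XEN-like cells, and *Hoxb13* (right) and *Hoxc9* (left) in ES cells.

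In ES cells without Dex, *Hoxb13* was called higher and *Hoxc9* lower in *Sox7* (−/−) cells, by the array values given above. Of all genes tested, 1.96% were called higher and 6.57% lower. The log2 difference was 1.15 (SE 0.24, adjusted p = 0.0037 from limma) for *Hoxb13* and −1.55 (SE 0.23, adjusted p = 4.6e-04) for *Hoxc9*, and neither gene's groups overlapped. The median was −0.17 over the 15 Hox genes and 0.11 over all genes. These 15 are again the genes left by the filter, so the counts and the median are not a result about Hox genes. Each ES group lay on a slide of its own, so slide and genotype cannot be told apart between these arrays. With the slide as a block, which rests on the *Sox7* (−/−) XEN-like arrays alone, *Hoxb13* was at 1.28 (adjusted p = 0.11) and lost its call, and *Hoxc9* was at −1.72 (adjusted p = 0.032). Without *Sox7* (+/−) ES replicate 2 the difference of *Hoxb13* was 0.96 and it was not called.

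Whether the answer to Dex differed between the genotypes was tested as an interaction. *Hoxc9* and *Hoxd13* were called, both higher in *Sox7* (−/−) cells, and no Hox gene was called lower. Of all genes, 6.99% were called higher and 3.14% lower. At an unadjusted p under 0.05, 1 of the 15 was lower, and 23.4% of all genes were. At an adjusted p under 0.05 without a minimum fold, 5 of the 15 were higher and 1 lower. Of all 18945 genes, 2477 were higher and 2972 lower by that rule. *Hoxd13* passed the filter only through *Sox7* (+/−) ES cells, and these counts are not a result about Hox genes. The interaction was 1.38 (SE 0.32, adjusted p = 0.011 from limma) for *Hoxc9*, which was lower in *Sox7* (−/−) than *Sox7* (+/−) ES cells and overlapped between the genotypes in XEN-like cells. It was 1.74 (SE 0.29, adjusted p = 0.0019) for *Hoxd13*, which fell in *Sox7* (+/−) cells and was not called in *Sox7* (−/−) cells, a size that rests on *Sox7* (+/−) XEN-like values below background. *Hoxa7* (0.56), *Hoxa10* (0.92, with *Sox7* (+/−) XEN-like values below background) and *Hoxd8* (0.90) had an adjusted p under 0.05 but under 2-fold. The comparisons above and the interaction share their arrays, so their values are not independent of each other. With spike-in controls 89.8% of all called genes were higher in place of 69.0% (90.0% in the unscaled table), the median moved from −0.10 to 0.30, and 5 Hox genes were called higher, with *Hoxa10*, *Hoxa11* and *Hoxd8* added.

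Around the clusters, other transcripts were also read. Within 100 kb of the Hox probes lay 91 other probes, of which 24 were tested. With Dex, none was called higher in either genotype, and 10 were called lower in *Sox7* (+/−) and 8 in *Sox7* (−/−) cells. Of all genes, each read by 1 probe, 11.0% and 14.5% were called higher and 14.0% and 14.1% lower. Of the probes called lower, 6 and 5 lay around the *Hoxa* cluster. Several probes read the same transcript, so these counts are not counts of transcripts and were not set against the background. A noncoding transcript beyond the anterior end of the *Hoxa* cluster, annotated on mm9 from chr6:52046805-52072744, had 5 tested probes. The one at chr6:52063900-52063959 was at 25.4%, 33.5% and 25.7% in *Sox7* (+/−) ES cells and at 163.4%, 180.4% and 179.4% in *Sox7* (−/−) ES cells, a log2 difference of 2.64 (SE 0.18, adjusted p = 2.9e-06 from limma). It was not well above background on any XEN-like array. The fall with Dex was at least 2.56-fold and at least 23.0-fold. Another 3 of the 5 probes were likewise above background on all ES arrays and on no XEN-like array, while the remaining probe, at chr6:52062194-52062253, was above background on all 12 arrays and was at 237.4%, 264.5% and 256.1% in *Sox7* (+/−) ES against 300.5%, 358.5% and 379.1% in the XEN-like cells. In *Sox7* (−/−) cells that probe was at 578.9%, 521.5% and 545.3% in ES and 174.0%, 187.3% and 178.8% in XEN-like cells, a log2 difference of −1.61 that was called.

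*Hoxa11os*, transcribed from the strand opposite to *Hoxa11*, was at 61.2%, 61.4% and 66.9% in *Sox7* (+/−) ES cells and at 15.3%, 8.81% and 23.7% in the XEN-like cells, a log2 difference of −2.10 (SE 0.27, adjusted p = 7.2e-05 from limma). In *Sox7* (−/−) cells it was at 53.3%, 51.5% and 47.7% in ES and at 25.3%, 28.5% and 27.4% in XEN-like cells, a difference of −0.91 that was not called, and the interaction was called at 1.19 (SE 0.38, adjusted p = 0.043). *Hoxa11* itself was called lower with Dex in both genotypes and *Hoxa11os* only in *Sox7* (+/−) cells. *Evx1*, the homeobox gene next to *Hoxa13*, was well above background only in *Sox7* (+/−) ES cells, at 12.6 ± 1.98% (SD, n = 3). It was at least 1.15-fold lower with Dex in these cells and at least 1.37-fold lower in *Sox7* (−/−) ES cells. *Skap1*, a signalling adaptor gene beyond the *Hoxb1* end of the *Hoxb* cluster, differed between the XEN-like groups, and its signal without *Sox7* was at least 2.502 times that with 1 copy (adjusted p = 9.2e-04).

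Among the factors that act with or on Hox genes, 7 of 9 TALE cofactors were well above background on all 12 arrays, with *Pbx4* and *Pknox2* short of it. *Meis1* and *Pknox2* were called higher with Dex in both genotypes, and *Meis3* in *Sox7* (−/−) cells. In *Sox7* (+/−) cells the difference of *Meis3* was 0.83 (adjusted p = 2.3e-06 from limma), less than 2-fold. *Meis1* had log2 differences of 2.01 and 2.78. No TALE gene was called between the XEN-like groups or in the interaction. Between the ES groups, which lay on separate slides, 0 of the 9 were called higher and 2 lower (1.96% and 6.57% of all genes). In *Sox7* (−/−) ES cells *Meis1* was lower, with a log2 difference of −1.17, and *Pknox2* was at least 2.80-fold lower.

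Of 6 Cdx and other ParaHox genes, 3 were tested. *Cdx2*, which switches on posterior Hox genes in the embryo, was at 37.4 ± 5.50% (SD, n = 3) in *Sox7* (+/−) ES cells and was at least 3.40-fold lower with Dex in them, where no array was well above background. In *Sox7* (−/−) cells it was at 9.11 ± 4.02% in ES and 10.8 ± 2.06% in XEN-like cells (SD, n = 3), and the interaction was called higher (adjusted p = 4.7e-04 from limma), with a size that rests in part on values below background. *Gsx2*, a gene of the forebrain, was well above background only in *Sox7* (−/−) ES cells, at 28.05 ± 1.95% (SD, n = 3), at least 4.08-fold higher than in *Sox7* (+/−) ES cells. *Cdx1* was at least 10.2-fold lower with Dex in *Sox7* (+/−) and at least 22.2-fold lower in *Sox7* (−/−) cells. *Cdx4*, *Gsx1* and *Pdx1* were not tested.

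Of 19 genes of retinoic acid synthesis, breakdown and response, 18 were tested. With Dex 4 were called higher and 6 lower in *Sox7* (+/−) cells, and 6 and 6 in *Sox7* (−/−) cells. Of all genes, 11.0% were called higher and 14.0% lower in *Sox7* (+/−) cells, and 14.5% and 14.1% in *Sox7* (−/−) cells. The median log2 difference was −0.38 and −0.68 over the 18, and 0.16 and 0.07 over all genes. Between XEN-like groups 2 were called higher and 1 lower (4.13% and 3.39% of all genes). Between ES groups 1 was called higher and 6 lower (1.96% and 6.57% of all genes). In the interaction 3 were called higher and 2 lower (6.99% and 3.14% of all genes). *Cyp26b1*, which breaks down retinoic acid, was at 26.9 ± 7.76% in *Sox7* (+/−) XEN-like cells (SD, n = 3) and at least 3.45-fold lower in *Sox7* (−/−) XEN-like cells. *Rdh10*, which makes its precursor, was called higher there by 1.18 (SE 0.13, adjusted p = 1.3e-04 from limma). Its interaction was 2.23, and that of *Dhrs3*, which turns the precursor back, was 2.63. Both genes were also lower in *Sox7* (−/−) than *Sox7* (+/−) ES cells, by −1.05 for *Rdh10* and −1.67 for *Dhrs3*, between groups on separate slides. Between the XEN-like groups *Dhrs3* differed by 0.97, less than 2-fold. *Cyp26b1* was lower in *Sox7* (−/−) than *Sox7* (+/−) ES cells too, by at least 1.78-fold, and its interaction was called lower at −1.31. It was not well above background on any *Sox7* (−/−) array, so the size of that interaction rests on values below background. *Stra8*, induced by retinoic acid in germ cells, was at 64.5 ± 3.99% in *Sox7* (+/−) and 640 ± 30.7% in *Sox7* (−/−) ES cells (SD, n = 3). That log2 difference was 3.31, between groups on separate slides. With Dex *Stra8* was at least 5.90-fold lower in *Sox7* (+/−) cells and differed by −5.94 in *Sox7* (−/−) cells. Its interaction was called lower at −1.80, a size that rests in part on values below background. *Stra8* had a fitted difference of 1.51 between the XEN-like groups. It was not well above background on any *Sox7* (+/−) XEN-like array. No bound can be given, since its *Sox7* (−/−) XEN-like mean (log2 −3.26) lay under the background limit of those arrays (−3.19).

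Of 20 regulators of Hox chromatin, 19 were tested and none was called between genotypes in either state or in the interaction. Of all genes, 7.53% were called between XEN-like groups, 8.52% between ES groups and 10.1% in the interaction. With Dex 3 of these regulators were called higher in each genotype, and 3 were called lower in *Sox7* (+/−) and 4 in *Sox7* (−/−) cells. Over all genes, 11.0% and 14.5% were called higher and 14.0% and 14.1% lower. Of 9 other regulators 6 were tested, and *Lin28b*, an RNA-binding protein, was the only one called. In *Sox7* (−/−) cells it was lower both between the XEN-like groups (log2 difference −2.76) and between the ES groups (−1.22, on separate slides). With Dex it was called lower in *Sox7* (+/−) (−2.01) and *Sox7* (−/−) cells (−3.54), and its interaction was −1.53.

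Markers of other cell types that use Hox genes differed between the groups too. Of 11 primitive streak and mesoderm markers 7 were tested, with 4 called lower with Dex in *Sox7* (+/−) and 3 in *Sox7* (−/−) cells. Over all genes, 14.0% and 14.1% were called lower. The summed signal of the 11 ranged from 2614% to 2841% in *Sox7* (+/−) ES, 1431% to 1832% in *Sox7* (+/−) XEN-like, 4628% to 4877% in *Sox7* (−/−) ES and 1377% to 1490% in *Sox7* (−/−) XEN-like cells. Such a sum is set mostly by its brightest members. Between the ES groups 1 was called higher and 2 lower without *Sox7* (1.96% and 6.57% of all genes), with a median of −0.52 (0.11 over all genes). Between the XEN-like groups 3 were called higher and 1 lower (4.13% and 3.39% of all genes), with a median of −0.21 (0.01 over all genes). *Mixl1*, *Msgn1* and *Meox1* were well above background on no array, and *T*, which marks the streak, was so only in *Sox7* (+/−) ES cells. Of 10 neural markers 4 were tested, with sums of 651% to 697%, 396% to 467%, 750% to 856% and 242% to 264% in the same order of groups. Without *Sox7*, 1 neural marker was called higher and 1 lower in ES cells, and 0 and 1 in XEN-like cells. *Pax6*, *Neurog1*, *Neurog2*, *Olig2* and *Egr2* were well above background on no array. The 7 trophoblast markers summed to 1041% to 1049%, 193% to 268%, 519% to 536% and 473% to 497%, with *Elf5* on no array. Without *Sox7*, 0 of them were called higher and 3 lower in ES cells, and 3 and 0 in XEN-like cells. The 7 endothelial markers summed to 252% to 281%, 196% to 258%, 221% to 241% and 213% to 224%, with *Emcn* and *Erg* on no array. Without *Sox7*, 0 of them were called higher and 0 lower in ES cells, and 1 and 1 in XEN-like cells. The part of such cells in the Hox values was not tested.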

How the data were processed

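The authors hybridized RNA of the 4 groups to Agilent mouse arrays, and per the file headers the deposited intensity of each spot was read by Agilent Feature Extraction 10.7.3.1, whose processed signal has the background taken off and no scaling between arrays. The intensity table deposited for the whole series, on a linear scale, differed from the mean spot signal by at most 0.51%, and thus still holds the background. Probe positions are on mm9. No genome sequence of that build was used, so exons and untranslated parts were not assigned.

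The log2 of the processed signal minus that of the array's 75th percentile was taken, spots flagged as outliers (1996 over 12 arrays) were left out, and each probe was given the average of its spots. A probe was kept if some group had it well above background on each of its 3 arrays, and the 25938 kept were fitted with limma 3.58.1 in R 4.3.3, with 12 arrays, 1 mean per group, 1.987 prior degrees of freedom and 5 comparisons. Genes were read by their brightest probe. Where every array of a group was not well above background, the fold is a bound, set on each array against the higher of the probe's signal and the lowest signal well above background. An adjusted p printed beside a bound is that of the fitted difference, which uses the signal as measured, also below background. Measured Hox genes were described, those called with each array's value, and 1 Hox gene that was not called and 1 marker are not reported here. Of the other lists, at most 4 genes each that were called between the XEN-like groups or in the interaction were named, and *Cdx1*, *Meis1*, *Meis3*, *Pknox2* and *T* were added after their values were seen. The members and lists were chosen with earlier results of these data known. The procedure was tested on simulated data. Alternatives changed the background correction, the scaling, the filter, the probe of a gene, the variance model, the arrays, the blocks and the minimum fold, and keeping flagged spots was added after seeing the data.

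Replicates correlated at 0.982 to 0.997 (Pearson's r across probes). Arrays with the same replicate number deviated together by −0.051 to 0.126, so no pairing by number was assumed. In the source labels the 3 *Sox7* (+/−) ES arrays all have the replicate number 1, and nothing says that replicates were separate cultures, so p-values measure the spread between these arrays, which may be technical. The number of arrays limits the precision, and promoters were taken from RefSeq on GRCm38.p6.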

Additional observations from a re-analysis of the deposited data

Results flagged for a closer look

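The response of *Hoxc9* to Dex differed between the genotypes by 1.38 on the log2 scale in the interaction test. It rose with Dex by 1.65 with 1 copy of *Sox7* and by 3.03 without *Sox7*, and *Hoxc9* was well above background on 1 of 3 *Sox7* (−/−) ES arrays. The cause was not tested.

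The response of *Hoxd13* differed by 1.74 in the same test. The log2 response was −1.97 with 1 copy of *Sox7* and −0.23 without it, and *Hoxd13* was not well above background on any *Sox7* (+/−) XEN-like array, so the size of the difference rests on values below background. With 3 arrays a group, outlying arrays were not tested for.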

How the results depend on the processing

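Folds of genes not well above background in a group are bounds. Of 1810 values for single Hox genes under the alternatives, covering 75 differences, 1730 kept their side of the threshold, 60 lost a call, 20 gained one and 0 reversed. With normexp and an offset of 50, which shrinks differences of dim probes, 1 gene was called higher and 0 lower for the *Sox7* (+/−) Dex response (5 and 4 in the report), 1 lower for *Sox7* (−/−), 0 higher between XEN-like groups, 0 and 0 between ES groups and 0 in the interaction. The deposited table without scaling gave 0 higher and 2 lower, 1 lower for *Sox7* (−/−), 2 higher between XEN-like groups (*Hoxa7* and *Hoxb7*), 0 and 0 between ES groups and 1 in the interaction. Spike-in scaling gave 1 higher for *Sox7* (+/−), 5 between XEN-like groups, 0 higher between ES groups and 5 in the interaction, and scaling by the median of probes above background gave 3 higher for *Sox7* (+/−). Keeping only probes above background on all 12 arrays leaves 5 Hox genes, of which 2 were higher with Dex in each genotype, and gave 0 for the other counts. Without a minimum fold, 7 were higher and 1 lower between XEN-like groups, 3 and 2 between ES groups, and 5 and 1 in the interaction. The cause of these changes was not tested. Leaving out each array in turn gave 3 to 5 genes higher and 4 to 5 lower for *Sox7* (+/−), 5 to 6 and 3 to 3 for *Sox7* (−/−), 3 to 4 higher between XEN-like groups, 0 to 2 higher between ES groups and 2 to 4 in the interaction. The lowest counts came without *Sox7* (+/−) ES replicate 2 (3 and 0) or *Sox7* (+/−) XEN-like replicate 1 (3), and the highest without *Sox7* (+/−) XEN-like replicate 3 (2 between ES groups) or 2 (4 in the interaction). With the replicate number as a block, which does not pair the samples, the count higher between ES groups was 2, that for the *Sox7* (+/−) Dex response 4 and that between XEN-like groups 4, and the other counts were as reported. With the slide as a block the count higher between ES groups was 0. At 1 of 3 arrays or more, 21 genes in place of 13 were above background in *Sox7* (+/−) ES and 16 in place of 9 in *Sox7* (−/−) ES cells. Keeping flagged spots, tried after seeing the data, moved no count.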
